A study of Mus musculus with 6 samples.

Results

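Fc gamma receptors bind the constant part of IgG antibodies and let leukocytes respond to antibody-coated particles and immune complexes. The mouse genes described here are the receptors Fcgr1, Fcgr2b, Fcgr3 and Fcgr4, and Fcer1g, which encodes the gamma chain shared by the activating receptors. They were chosen by symbol, 5 of the 17714 genes of the deposited table, and all 5 were found and passed the filter on low counts. The table held 6 RNA sequencing libraries from wild-type (WT) mouse hearts, labelled as lymphatic endothelial cells: 3 from sham-operated animals and 3 after myocardial infarction (MI), all taken at day 3. The labels name both whole heart tissue and primary endothelial cells of the heart, mention medium with serum, and give no sorting step, age, sex or strain. Whether each library stands for its own animal is not stated, so the p-values below measure only the spread between these libraries.

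Activating receptors carry no signalling motif of their own in mouse. They pair with the gamma chain, whose cytoplasmic tail holds an immunoreceptor tyrosine-based activation motif (ITAM). Src-family kinases phosphorylate its tyrosines and the kinase Syk docks there, which starts phagocytosis and cytokine release. Fcgr2b is the inhibitory receptor: its tail holds an inhibitory motif (ITIM) that recruits the lipid phosphatase encoded by Inpp5d. The same macrophage can carry both kinds, and the balance between them sets its threshold for antibody. In the heart, macrophages, monocytes and neutrophils are the usual carriers, and Fcgr2b is also known from some endothelial cells.

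The stretches of coding sequence that separate the activating chain from the inhibitory receptor are shown first, because the comparisons below rest on that division. They were read from GENCODE M21 transcripts (GRCm38), 5′ to 3′ on the coding strand. Capitals mark the codons that make the motif. In Fcer1g these are a tyrosine codon followed 3 codons on by one for leucine, and the same again further along. In Fcgr2b they are an isoleucine codon, the tyrosine codon and a leucine codon.
Fcer1g, codons 62 to 81 of 86, chr1:171229883-171230081, minus strand, with an intron inside: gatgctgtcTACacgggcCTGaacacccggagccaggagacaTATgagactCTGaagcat
Fcgr2b, codons 313 to 326 of 340, chr1:170961059-170961100, minus strand: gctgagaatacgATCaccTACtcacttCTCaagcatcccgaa
A search of all complete coding transcripts found the ITAM spacing in 1 Fcer1g transcript and in no transcript of the 4 receptors. The ITIM spacing was present in all 4 complete Fcgr2b transcripts. It also occurred 2 times in Fcgr1 and 1 time each in Fcgr4 and Fcer1g, and not in Fcgr3, so a match alone does not make a motif. The deposited values are per gene and do not separate transcripts.

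The 4 genes Fcgr2b, Fcgr4, Fcgr3 and Fcer1g lie together within 274 kb of chromosome 1 (GRCm38.p6), and Fcgr1 lies on chromosome 3. In RefSeq, Fcgr2b (Entrez 14130) runs from 170960558 to 170976071, Fcgr4 (246256) from 171018926 to 171029761, Fcgr3 (14131) from 171051169 to 171065915 and Fcer1g (14127) from 171229572 to 171234349. Fcgr1 (14129) runs from 96282909 to 96293969. All 5 are annotated as protein coding. Fcgr2b and Fcgr3 are close relatives, so reads from their shared exons can be divided between them. Of the distinct 50-base stretches of 1 coding transcript per gene, 12.8% of those of Fcgr3 were also in Fcgr2b, and 4.96% of those of Fcgr2b were also in Fcgr3. With other genes counted too, 8.60% of the Fcgr2b stretches were shared. At 100 bases the share was 3.53% for Fcgr3. No stretch of either length from Fcgr1, Fcgr4 or Fcer1g occurred in a transcript of another gene. The values of Fcgr2b and Fcgr3 are therefore the less certain ones, as neither the read length nor the counting program is known here.

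The 120 bases before 1 RefSeq start of each gene (GRCm38.p6, 5′ to 3′ on the gene's strand) are shown as description. Their part in the changes below was not tested. Capitals mark matches to GAGGAA, the core bound by the myeloid factor PU.1, to TTCNNNGAA, the gamma-activated site (GAS), and to GAAA, any 2 bases and GAAA again, the core of the interferon-stimulated response element (ISRE). The Fcgr3 start shown lies inside the longest annotated extent of that gene.
Fcgr1, chr3:96293970-96294089: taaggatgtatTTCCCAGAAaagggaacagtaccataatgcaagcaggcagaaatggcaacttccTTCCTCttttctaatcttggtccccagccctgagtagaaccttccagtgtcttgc
Fcgr4, chr1:171018806-171018925: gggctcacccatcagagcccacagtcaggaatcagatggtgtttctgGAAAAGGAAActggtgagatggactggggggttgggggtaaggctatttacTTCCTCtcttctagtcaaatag
Fcgr3, chr1:171059404-171059523: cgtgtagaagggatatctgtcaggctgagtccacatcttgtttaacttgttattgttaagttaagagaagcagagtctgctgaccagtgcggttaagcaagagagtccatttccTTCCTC
Fcgr2b, chr1:170976072-170976191: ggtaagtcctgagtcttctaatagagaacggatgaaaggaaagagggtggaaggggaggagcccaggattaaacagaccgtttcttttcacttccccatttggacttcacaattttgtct
Fcer1g, chr1:171234350-171234469: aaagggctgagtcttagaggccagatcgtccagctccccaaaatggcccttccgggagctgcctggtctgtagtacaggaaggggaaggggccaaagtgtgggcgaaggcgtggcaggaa
Both strands of the full window of 300 bases in the RefSeq promoter table were searched. GAGGAA, in each case on the opposite strand as TTCCTC, was found in Fcgr1, Fcgr4 and Fcgr3, 3 of the 5 genes, and in 28.3% of all 32851 promoter windows. The GAS letters were found in Fcgr1 alone among the 5, and in 8.3% of all windows. The ISRE letters were found in Fcgr4 alone among the 5, and in 3.44% of all windows. A match describes letters and not binding, and a window without one says nothing about the factor.

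All 5 genes were higher in MI than in sham, by graded amounts, with the signalling chain between the receptors. Fcgr4 and Fcgr1 were 17.0-fold and 15.2-fold higher, Fcer1g was 7.42-fold higher, and the inhibitory Fcgr2b and the activating Fcgr3 were 3.59-fold and 2.92-fold higher. By the quasi-likelihood test of edgeR, adjusted by Benjamini-Hochberg over 13370 genes, 5 of 5 passed an adjusted p of 0.05 in that direction, where 36.4% of all genes tested did. A further 36.9% of all genes passed as lower, and none of the 5 did. The groups did not overlap at any of the 5, where MI lay above sham without overlap at 38% of all genes and the groups were apart in either direction at 76.1%. In bulk libraries a change in the share of cells that carry a transcript and a change in transcripts per cell cannot be told apart.

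The libraries differed in more than the operation. Sham libraries held 3206732 to 3591473 estimated counts and MI libraries 21154342 to 21689333, and 9801 of 13370 genes (73.3%) passed the test. MI 1 stood apart from the other MI libraries, with a chi-square per gene of 21.3 and 35.3 against them and 4.14 between MI 2 and MI 3. Between sham libraries it was 1.54 to 1.77. The measure grows with the counts, so the sham and MI values are not on an equal footing. Markers of several cell types moved with the groups, where 36.4% of all genes tested were higher and 36.9% lower. Of 17 macrophage and monocyte markers tested 16 rose and 1, Timd4, fell, and their summed level was 7750 to 8162 TPM (a level scaled for transcript length and library total) in sham and 35887 to 37418 TPM in MI. The 12 neutrophil markers summed to 87.2 to 113 TPM and 1691 to 2080 TPM, with 7 of 9 tested higher and 2 at 0 in all sham libraries. S100a9 and S100a8 made up most of the MI sum (means 861 and 829 TPM). Mpo and Ltf did not pass, and Ly6g, Camp and Elane were too low to test. All 10 pan-endothelial markers fell (5673 to 5707 TPM against 1089 to 1122 TPM). Of 9 lymphatic endothelial markers 8 fell and 1, Pdpn, rose (5.23 ± 0.938 to 190.4 ± 9.55 TPM), and Prox1, the defining one, was at 1.76 ± 0.127 TPM in sham and 0.283 ± 0.117 TPM in MI (SD, n = 3). The NK and T cell markers summed to 4.43 to 6.10 TPM in sham and 10.7 to 11.6 TPM in MI. Of 4 tested 2, Cd4 and Klrk1, rose and 2, Gzma and Cd8a, did not pass. The B cell markers summed to 11.1 to 14.7 TPM and 7.85 to 10.4 TPM, and of 4 tested 1 rose, 2 fell and 1 did not pass. All 8 cardiomyocyte markers fell, 5 of 8 dendritic cell markers rose and 3 fell, and of 9 fibroblast and mural markers 2 rose and 7 fell. The part of these marker shifts in the results below was not tested.

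Fcgr1 encodes the high-affinity IgG receptor (CD64), which can hold single antibody molecules. It stood at 16.4, 15.3 and 14 TPM in sham 1 to 3 and at 205, 206 and 215 TPM in MI 1 to 3. The lowest MI library was 13.1 times the highest sham library in CPM (counts scaled to library size), so the groups were far apart and tight within themselves. The log2 fold change was 3.93 ± 0.11 (SE; edgeR adjusted p = 4.46e-11), which placed Fcgr1 at rank 322 of 13370 genes. Its sham counts were 89, 80 and 69, against 5435 to 6273 in MI.

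Fcgr4 encodes an activating receptor that binds mainly the IgG2 subclasses and is found on monocytes, macrophages and neutrophils. It stood at 10.5, 17.4 and 8.36 TPM in sham and at 174, 189 and 188 TPM in MI. Sham 2 was the highest of the sham libraries, and all MI libraries lay well above it. These sham values rest on only 27, 43 and 19 counts. The coefficient of variation of TPM was 39.1% in sham and 4.38% in MI. The log2 fold change was 4.09 ± 0.19 (SE; edgeR adjusted p = 2.07e-09), and it was 4.45 without sham 2 and as low as 3.89 without sham 3.

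Fcgr3 encodes the low-affinity activating receptor (CD16) of macrophages, neutrophils and NK cells. It stood at 223, 224 and 211 TPM in sham and at 555, 578 and 583 TPM in MI. It was the most abundant receptor in every library and the one with the smallest change. The log2 fold change was 1.55 ± 0.09 (SE; edgeR adjusted p = 1.08e-08), at rank 1787 of 13370 genes.

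Fcgr2b, the inhibitory receptor (CD32B), stood at 108, 121 and 117 TPM in sham and at 393, 356 and 364 TPM in MI. The groups were separate, and by TPM MI 1 was the highest MI library for this gene, whereas it was the lowest for the other 4. The log2 fold change was 1.84 ± 0.08 (SE; edgeR adjusted p = 1.48e-09), between those of Fcgr3 and Fcer1g.

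Fcer1g, the signalling chain, stood at 239, 214 and 238 TPM in sham and at 1399, 1632 and 1536 TPM in MI. It ranked 559 to 632 by TPM among all genes of a sham library and 93 to 96 in an MI library, so it was among the most abundant transcripts after infarction. The log2 fold change was 2.89 ± 0.11 (SE; edgeR adjusted p = 5.41e-10). Without MI 1 the 5 log2 fold changes were 4.01 (Fcgr1), 4.19 (Fcgr4), 1.64 (Fcgr3), 1.87 (Fcgr2b) and 3.02 (Fcer1g).

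**Figure D1:**
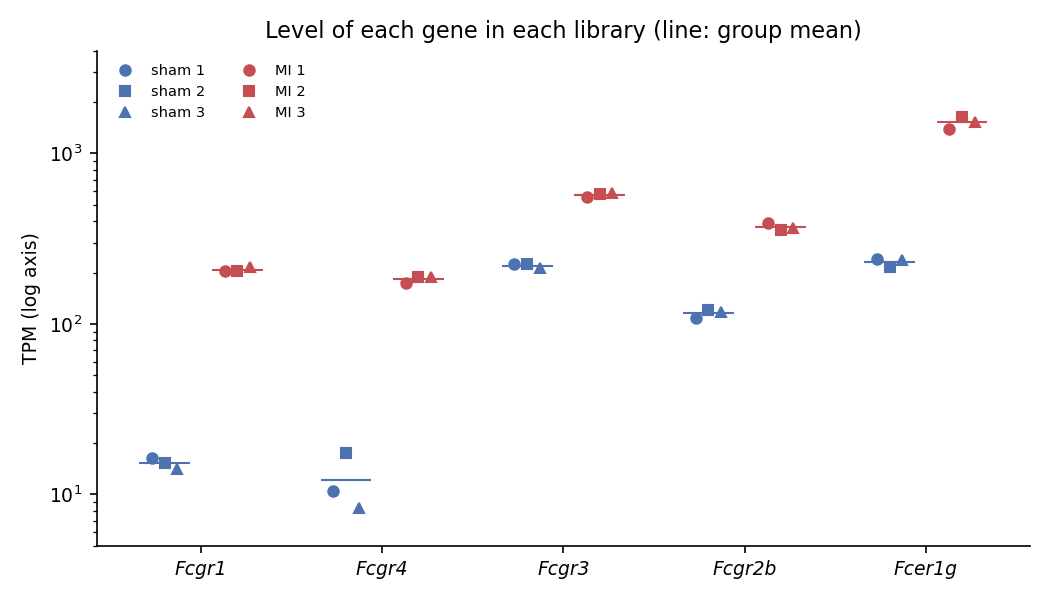
TPM of each gene (log axis) in the 3 sham libraries (blue) and the 3 MI libraries (red), with a line at each group mean. Fcgr1 and Fcgr4 start near 15.2 and 12.1 TPM in sham and reach 208 and 184 TPM in MI, while Fcgr3 and Fcgr2b start higher and move less.

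By TPM, which divides by transcript length and so allows levels of different genes to be compared, the order in MI was Fcer1g, Fcgr3, Fcgr2b, Fcgr1 and Fcgr4, with no overlap between neighbours in the 3 libraries. In sham the mean levels had the same order. There the ranges of Fcer1g and Fcgr3 overlapped, with Fcer1g higher in 2 of 3 libraries, as did those of Fcgr1 and Fcgr4, with Fcgr1 higher in 2 of 3. Fcgr3 and Fcgr2b did not overlap in sham, nor did Fcgr2b and Fcgr1.

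The make-up of the receptor transcripts shifted from Fcgr3 towards Fcgr1 and Fcgr4, while the inhibitory share moved little. Fcgr3 was 60.6 ± 1.48% of the TPM of the 4 receptors in sham and 42.9 ± 0.898% in MI (SD, n = 3). Fcgr1 went from 4.21 ± 0.316% to 15.6 ± 0.256%, and Fcgr4 from 3.31 ± 1.16% to 13.8 ± 0.555%. Fcgr2b was 31.9 ± 1.58% in sham (30.2% to 33.4%) and 27.8 ± 1.57% in MI (26.8% to 29.6%), so its ranges came within 1 SD of each other without overlapping. The sum of the 3 activating receptors per unit of Fcgr2b TPM was 2.31, 2.13 and 1.99 in sham and 2.38, 2.74 and 2.70 in MI. MI 1, at 2.38, lay close to sham 1. Because the shares add to a whole, a rise of one lowers the others.

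**Figure D2:**
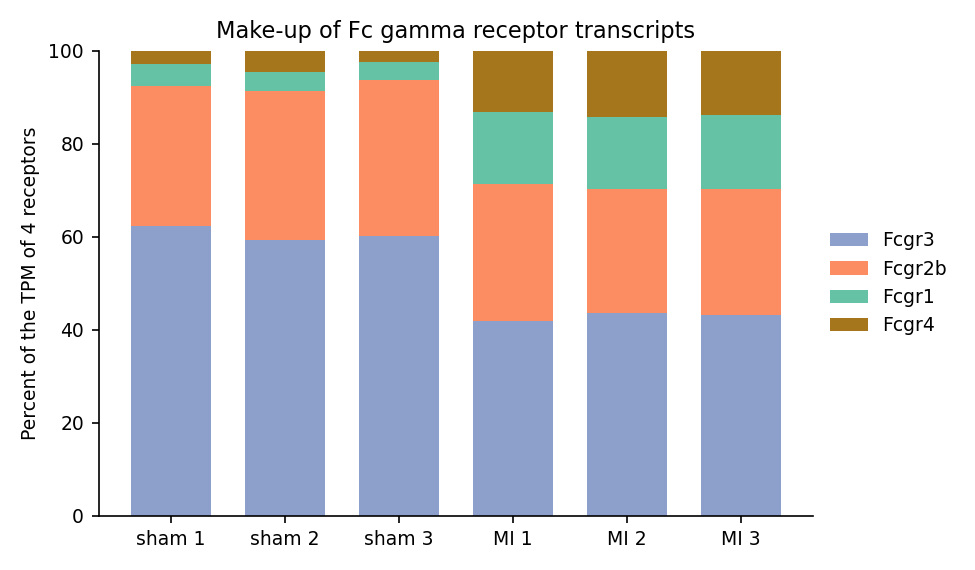
Percent of the summed TPM of the 4 Fc gamma receptors taken by each, in every library. The Fcgr3 part is near 60.6% in sham and 42.9% in MI, the Fcgr1 and Fcgr4 parts are larger in MI, and the Fcgr2b part is 26.8% to 33.4% throughout.

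Set against the inhibitory receptor within each library, where library scaling cancels, the activating receptors went different ways. The log2 count ratio of Fcgr1 to Fcgr2b was -1.82, -2.07 and -2.14 in sham and -0.04, 0.11 and 0.14 in MI. Fcgr1 counts thus went from well below those of Fcgr2b to about level with them, a difference of 2.08 ± 0.11 (SE). Counts are not divided by transcript length, and by TPM Fcgr1 stayed below Fcgr2b in MI (means 208 and 371 TPM). For Fcgr4 the log2 ratio was -3.52, -2.96 and -3.97 in sham and -1.35, -1.09 and -1.14 in MI, a difference of 2.29 ± 0.30. For Fcer1g it was -0.02, -0.33 and -0.13 in sham and 0.67, 1.04 and 0.91 in MI, a difference of 1.04 ± 0.14. The Fcgr3 ratio moved down, from 0.97, 0.83 and 0.79 in sham to 0.44, 0.64 and 0.61 in MI.

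The Fcgr3 difference, -0.30 ± 0.08 (SE), was the smallest of the 4 and was -0.24 without MI 1. These are the genes that share sequence, and the part of shared reads in this difference was not tested. None of the 4 ratios overlapped between groups. Each gave p = 0.1 in an exact two-sided permutation test (adjusted p = 0.1 over 4 ratios), the smallest that 3 against 3 libraries can give, so no ratio could pass 0.05. Within the activating receptors, therefore, Fcgr1 and Fcgr4 gained on Fcgr2b in every library pair across the groups, and Fcgr3 did not.

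**Figure D3:**
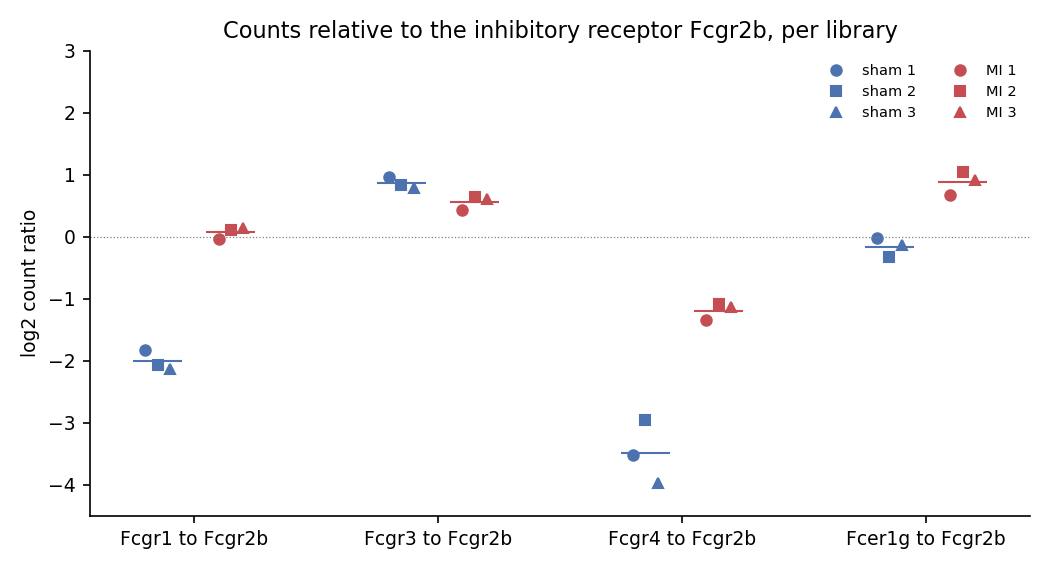
Log2 ratio of the counts of each gene to those of Fcgr2b in the same library, with a line at each group mean and a dotted line where the counts are equal. Fcgr1, Fcgr4 and Fcer1g lie higher in MI, and Fcgr3 lies lower by 0.30.

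The supply of the signalling chain relative to its receptors also differed. Fcer1g TPM per TPM of Fcgr1, Fcgr3 and Fcgr4 together was 0.956, 0.834 and 1.02 in sham and 1.498, 1.68 and 1.56 in MI. All MI libraries lay above all sham libraries. Fcer1g also serves receptors outside the IgG family, which are given below, so this ratio does not describe the IgG receptors alone.

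The genes were also set beside myeloid reference genes. Division by the same reference shifts the log2 change of every gene alike. The likeness of Fcgr1 to Fcgr4 and of Fcgr3 to Fcgr2b is thus carried over and is not a separate result. Per 100 TPM of Cd68, a lysosomal protein of macrophages, Fcgr1 was at 10.1, 10.2 and 8.79 TPM in sham and at 10.8, 9.62 and 10.4 TPM in MI, with overlapping groups. Fcgr4 was at 6.48, 11.6 and 5.25 in sham and at 9.195, 8.84 and 9.09 in MI, also overlapping. Fcgr2b, in contrast, went from 66.8, 80.1 and 73.5 to 20.7, 16.6 and 17.6 per 100 Cd68 TPM, 4.02-fold lower, and Fcgr3 from 139.6 ± 8.29 to 28.2 ± 1.11 (SD, n = 3), 4.95-fold lower. Fcer1g lay between, at 146 ± 3.58 in sham and 74.8 ± 1.39 in MI.

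Per 100 TPM of Csf1r, the growth factor receptor of macrophages, the changes from sham to MI ran from slightly lower to several-fold higher. Compared with the Cd68 scale, the log2 changes of all 5 genes were shifted up by the same amount. Fcgr3 was at 108, 107 and 109 TPM in sham and at 99.4, 106 and 103 TPM in MI, only 1.05-fold lower, and Fcgr2b was at 57.0 ± 4.09 and 66.7 ± 3.14 (SD, n = 3), 1.17-fold higher. Fcgr1 was 4.99-fold higher on this scale (7.50 ± 0.386 against 37.4 ± 0.731) and Fcgr4 5.81-fold higher (5.91 ± 2.11 against 33.0 ± 1.70). Fcer1g was 2.41-fold higher. This shift between the scales is that of the reference genes themselves (log2 fold change 3.86 for Cd68 and 1.62 for Csf1r), and neither gives the number of macrophages.

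Other references lay between these. Per TPM of Ptprc (the pan-leukocyte CD45), Lyz2 (lysozyme) and Tyrobp, Fcgr1 was 2.39-fold, 3.26-fold and 2.66-fold higher, and Fcgr4 2.78-fold, 3.79-fold and 3.09-fold higher. On the same scales Fcgr3 was 2.20-fold, 1.61-fold and 1.98-fold lower, and Fcgr2b 1.79-fold, 1.31-fold and 1.60-fold lower. Fcer1g was 1.15-fold, 1.57-fold and 1.28-fold higher. Per TPM of Itgam, the CD11b integrin chain, Fcgr1 and Fcgr4 were 1.28-fold and 1.49-fold higher, and Fcgr3, Fcgr2b and Fcer1g 4.11-fold, 3.33-fold and 1.62-fold lower.

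**Figure D4:**
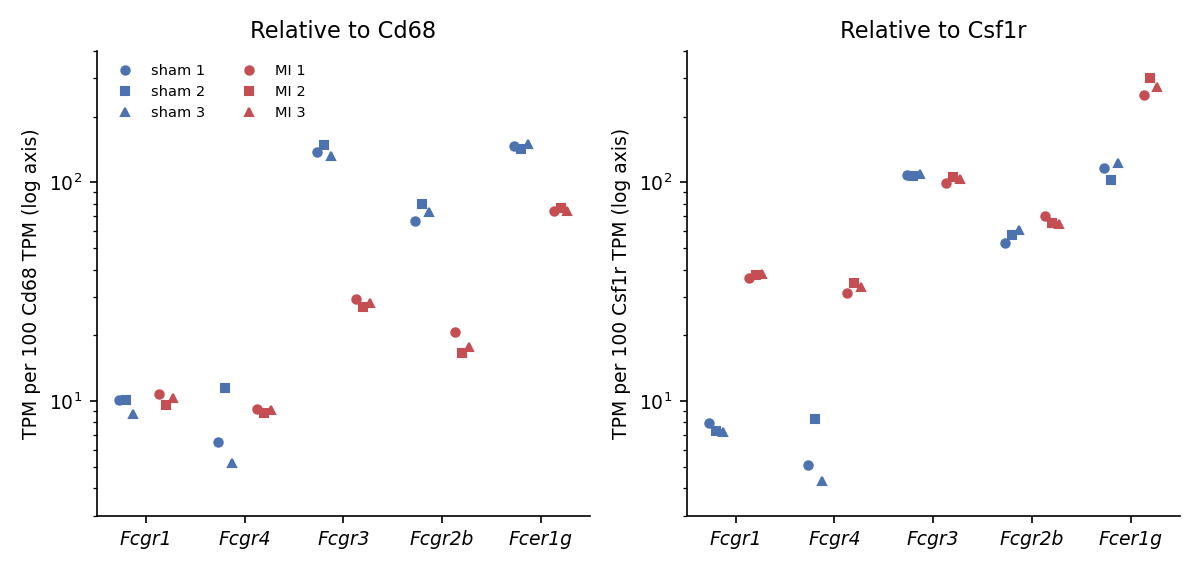
TPM of each gene per 100 TPM of Cd68 (left) and per 100 TPM of Csf1r (right) in every library, on log axes. Relative to Cd68 the sham and MI points of Fcgr1 and Fcgr4 overlap and those of Fcgr3 and Fcgr2b are lower in MI, whereas relative to Csf1r Fcgr1 and Fcgr4 are 4.99-fold and 5.81-fold higher.

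The likeness of the 5 patterns was measured as the root mean square distance between log2(CPM + 0.5) values centred on each gene's mean over 6 libraries. With sham and MI as the only groups, this distance largely follows the difference in log2 fold change. The pairs and nearest genes given here thus restate the fold changes and are not a separate result. Fcgr2b and Fcgr3 were 0.17 apart and Fcgr1 and Fcgr4 0.30 apart. The other 8 pairs were 0.52 to 1.29 apart. Among 10833 other genes with a mean of at least 5 CPM, the nearest to Fcgr1 was Csf3r, the neutrophil growth factor receptor gene (distance 0.04), followed by the TNF receptor gene Tnfrsf1b and the lysosomal transporter gene Slc15a3. The nearest to Fcgr2b was Grb2 (0.03), which encodes an adaptor and is also in the signalling list below. Sdc3 was nearest to Fcgr3 (0.03), and Coro1a, an actin regulator of leukocytes, to Fcer1g (0.05). The genes nearest to Fcgr4 had sham means of only 0.431 to 3.87 CPM, where the added 0.5 weighs more, and are not described as like it.

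Downstream of the activating receptors, most listed kinases, adaptors and effectors were higher in MI too. Of 26 genes tested, 24 rose and 1 fell (median log2 fold change 2.52), beside 36.4% higher, 36.9% lower and a median of -0.01 over all 13370 genes. Syk, the kinase that docks on the phosphorylated chain, went from 44.0 ± 2.34 to 758 ± 10.9 CPM (SD, n = 3; log2 fold change 4.10 ± 0.09, SE). Prkcd, a protein kinase C, went from 39.9 ± 0.805 to 279 ± 4.12 CPM, and the adaptor gene Lat2 from 12.1 ± 0.573 to 176 ± 13.6 CPM. Pik3r5, a regulatory subunit of PI3 kinase gamma, had a log2 fold change of 4.88 ± 0.14 (SE).

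Members of one enzyme family differed in direction. Plcg1, the phospholipase C gamma of most tissues, fell from 133 ± 9.82 to 41.7 ± 1.37 CPM (log2 fold change -1.67 ± 0.09). Plcg2, the form of haematopoietic cells, named after its value was seen, rose from 20.4 ± 2.33 to 169 ± 5.40 CPM. Of the Src-family kinases, Lyn and Fgr were also named after their values were seen. Lyn rose (181 ± 12.1 to 464 ± 15.99 CPM, log2 fold change 1.36 ± 0.08). Fgr had a log2 fold change of 7.03 ± 0.28, from 0.781 ± 0.679 CPM in sham. Sos1, a Ras exchange factor, did not pass (31.7 ± 1.31 and 33.2 ± 5.35 CPM). The adaptor gene Shc1, at 0.52 ± 0.09, lost its call under total-count scaling.

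The brakes of the pathway were higher as well. Of 12 inhibitory signalling genes tested, 10 rose and none fell (median log2 fold change 1.70), beside 36.4% higher and 36.9% lower over all genes. Inpp5d, the lipid phosphatase that Fcgr2b recruits, went from 51.0 ± 3.41 to 285 ± 2.29 CPM (log2 fold change 2.48 ± 0.09, SE). Ptpn6, a tyrosine phosphatase of leukocytes, went from 20.4 ± 3.79 to 147 ± 16.6 CPM, and Pag1 and Csk, which together restrain Src-family kinases, had log2 fold changes of 2.55 ± 0.15 and 1.66 ± 0.11. The widely expressed relatives Inppl1 and Ptpn11 did not pass, at 0.14 ± 0.09 and -0.08 ± 0.09. Scaling to total counts turned both into falls, and 9 of the 12 rose. The medians of the activating and inhibitory lists, 2.52 and 1.70, were not compared by a test.

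**Figure D5:**
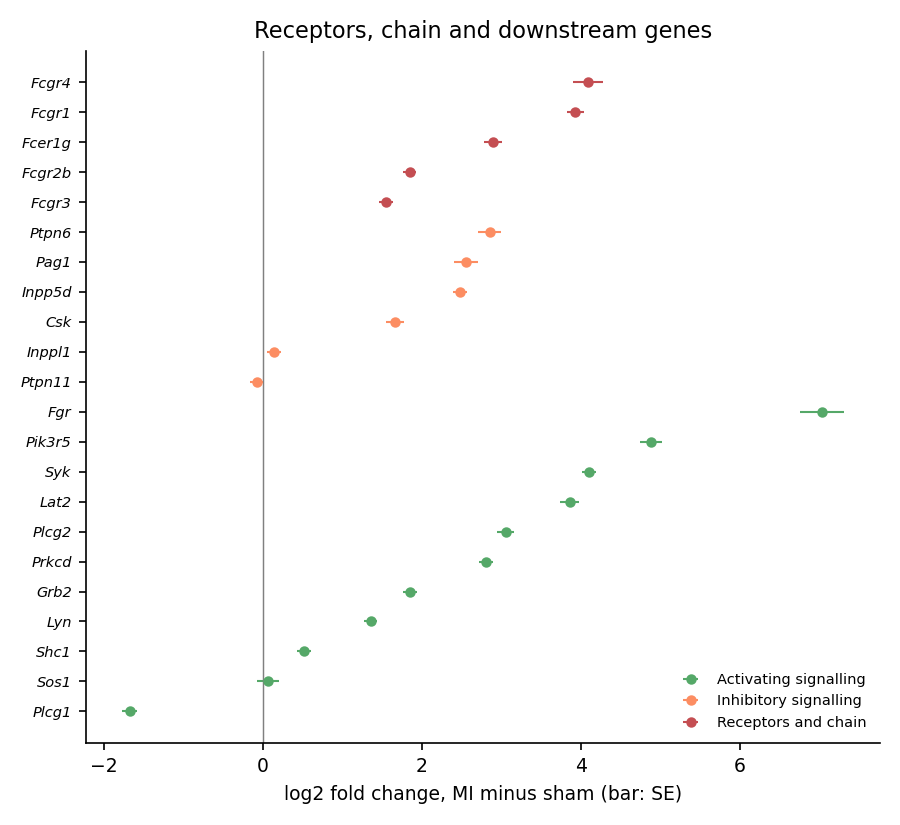
Log2 fold change (MI minus sham, bar: SE) of the 5 genes and of the genes named in the text from the activating and inhibitory signalling lists. Plcg1 at -1.67 and Fgr at 7.03 are the extremes, and Sos1, Inppl1 and Ptpn11 lie near 0.

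Other receptors listed as partners of the gamma chain rose in most cases. Of 14 listed, 12 were found by symbol and 9 were tested, of which 8 rose and 1 fell, beside 36.4% and 36.9% over all genes. Clec4e and Clec4d, lectins that sense damaged cells and microbes, went from 17.3 ± 0.843 to 1324 ± 92.1 CPM and from 17.4 ± 2.43 to 759 ± 50.7 CPM (SD, n = 3). Clec4n, a lectin for mannans, went from 22.7 ± 2.52 to 173 ± 4.74 CPM. Lilra5, an activating leukocyte receptor, was the member that fell, from 35.5 ± 3.47 to 7.98 ± 0.599 CPM. Clec7a and Clec4a2 are in the list and rose, yet carry signalling motifs of their own. The count of 8 is thus not one of gamma chain partners alone. Clec4a2, Tarm1, Pira2 and Lilra6 were named after their values were seen. Tarm1 was at 0 in sham and was at least 85.3-fold higher, against a floor of 3 counts over the sham group. Pira2 and Lilra6, which also rose, belong to families of closely similar genes and are uncertain.

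Among other antibody receptors the directions were mixed, and 9 of the 14 listed were too low to test or were not found. Fcgrt, the neonatal Fc receptor that recycles IgG in endothelial cells and macrophages, fell from 289 ± 2.73 to 125 ± 12.3 CPM (log2 fold change -1.20 ± 0.09, SE). Trim21, the cytosolic antibody receptor, fell from 28.0 ± 2.38 to 10.2 ± 0.393 CPM. Fcrls, a receptor-like gene of macrophages and microglia, rose from 124 ± 5.74 to 722 ± 32.7 CPM, and Fcrl1 from 0.431 ± 0.294 to 14.6 ± 1.11 CPM. Fcrlb was at 0 in sham and at 3.31 ± 0.369 CPM in MI, at least 12.8-fold higher. Fcer1a, the IgE-binding chain that also uses Fcer1g in mast cells, had a rounded count of 0 in 5 of 6 libraries. Of 12 antibody chain genes, 1, Jchain, was matched by symbol and was too low to test, and the others were not analysed here.

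Other signalling chains with an ITAM went both ways. Tyrobp, the chain of many myeloid receptors, rose from 112 ± 5.55 to 653 ± 130 CPM (SD, n = 3; log2 fold change 2.55 ± 0.14, SE). Cd247, the zeta chain of NK and T cells, fell from 15.6 ± 1.66 to 3.16 ± 0.40 CPM. The NK receptor gene Ncr1 had a rounded count of 0 in 5 of 6 libraries, as did the T cell genes Cd3e and Cd3g. Cd79a, a B cell chain, fell from 2.86 ± 0.197 to 0.475 ± 0.144 CPM, and its partner gene Cd79b, at 2.58 ± 0.838 and 5.38 ± 1.45 CPM, was called higher with the main scaling and not with total counts. Hcst, an adaptor without an ITAM, rose from 1.03 ± 0.205 to 5.25 ± 1.45 CPM.

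Fcgr1 is a textbook target of interferon gamma, and the list of such targets went both ways. Of 15 genes tested, 5 rose and 10 fell (median log2 fold change -0.60), beside 36.4% higher and 36.9% lower over all genes tested. The share that rose was near that of all genes, and the share that fell was above it. With total-count scaling 4 rose, Ciita no longer among them. The interferon regulatory factor gene Irf1 fell from 462 ± 13.2 to 151 ± 12.5 CPM, the chemokine gene Cxcl9 from 77.2 ± 6.60 to 22.6 ± 0.588 CPM and the GTPase gene Iigp1 from 175 ± 4.82 to 40.5 ± 7.88 CPM. Cxcl10 rose from 76.2 ± 5.77 to 336 ± 21.5 CPM.

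The genes that neighbour the receptors on the chromosome went both ways. Within 300 kb of the 4 genes on chromosome 1, 23 other protein-coding genes were tested, of which 6 rose, 8 fell and 9 did not pass (median log2 fold change -0.06), beside 36.4% higher and 36.9% lower over all genes tested. The predicted gene Gm39701, which lies next to Fcgr2b, had a log2 fold change of 1.87 ± 0.09 (SE), near that of Fcgr2b. Pcp4l1, which lies between Fcgr3 and Fcer1g, had one of -2.03 ± 0.10. Around Fcgr1 on chromosome 3, 12 other genes were tested, of which 2 rose, 8 fell and 2 did not pass (median -0.99).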

How the data were processed

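Per the labels and the series' design text, the authors mapped BGISEQ-500 reads to GRCm38 and deposited unscaled estimated counts for 17714 genes. The deposited TPM and FPKM were the authors' own. The authors also deposited a signal column of scaled counts. FPKM and that column were not used here. GRCm38.p6 stands in the submitters' processing notes, as does Agilent Feature Extraction 9.1, with no role. Aligner, counter and strand setting: not given in the sources used here.

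Groups and replicate numbers came from the sample titles. Estimated counts were rounded. In R 4.3.3, edgeR 4.0.16 filtered genes with filterByExpr, applied TMM scaling and fitted its quasi-likelihood model to all 6 libraries with the group as the only term. Two-sided p-values were adjusted by Benjamini-Hochberg over all genes tested, with a threshold of 0.05. CPM are TMM-scaled, and each SE was derived from the fold change and its F statistic. Ratios used 0.5 added counts.

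On simulated data for MI against sham (13226 genes), 81.8% of 2-fold and 57.6% of 1.5-fold changes were recovered, and 5 of 143 calls were false. The simulation changed only 99 tested genes at each fold and gave every gene the same relative spread between libraries. In the data 73.3% of genes passed, so these rates describe the simulated setting and not the comparison itself. Of the sham counts, only 19 to 43 per library were of Fcgr4, which limits its precision.

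The 5 genes, gene lists and reference markers were chosen with earlier results of these data known. Named were the 5 genes, up to 4 genes of a list with the smallest p and any on which a count turned, coding neighbours within 300 kb, and the 3 nearest patterns per gene; others are marked. Alternatives were DESeq2 1.42.0, limma 3.58.1 (voom, and log2(TPM + 1)), RLE and total-count scaling, other filters, a replicate block, thinned MI libraries and each library left out. Some list members and neighbours are counted but not reported by name here.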

Additional observations from a re-analysis of the deposited data

How the results depend on the processing

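All 5 genes kept their rise and their call under each of the 15 alternatives run. Their log2 fold changes ran from 3.58 to 4.01 (Fcgr1), 3.74 to 4.45 (Fcgr4), 1.20 to 1.64 (Fcgr3), 1.49 to 1.90 (Fcgr2b) and 2.54 to 3.02 (Fcer1g), with the lowest value of each under total-count scaling. That scaling moved the median log2 fold change of all genes from -0.01 to -0.36, and higher calls made up 34.9% of calls instead of 49.6%. With MI libraries thinned to the sham depth, 8577 genes passed instead of 9801, and with total-count scaling 10177. The ratios to Fcgr2b kept their sign under all 10 alternatives, from 2.01 to 2.18 (Fcgr1), 2.05 to 2.56 (Fcgr4), 0.95 to 1.14 (Fcer1g) and -0.34 to -0.24 (Fcgr3). Leaving out 1 library at a time gave 8596 to 9925 genes called, 24 activating and 10 to 11 inhibitory signalling genes higher. Same-numbered libraries did not deviate together (r = -0.0679, -0.0365 and 0.000121 across genes), so the numbers were not taken as pairs; with the replicate number as a block 9635 genes passed, the 5 genes stayed called, and the ratios kept their values with an exact p of 0.25, the smallest that 3 pairs allow.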
